A study of Mus musculus with 2 samples.

Results

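The TGF-beta ligands, their receptors and the latent TGF-beta binding proteins were followed as 10 genes, taken by symbol from a deposited table of 24862 genes. They are the ligand genes Tgfb1, Tgfb2 and Tgfb3, the receptor genes Tgfbr1, Tgfbr2 and Tgfbr3, and the binding protein genes Ltbp1, Ltbp2, Ltbp3 and Ltbp4. The table comes from RNA sequencing of GFP+ cells of the stromal vascular fraction, which is what remains of digested inguinal white fat once the mature adipocytes float off, of male mice 3 weeks of age. There were 2 libraries, 1 for the Sox9 floxed and 1 for the Sox9 PreASKO genotype, and both groups had been given doxycycline on postnatal day 1. The design text equates GFP+ with Pref-1+ cells and names a pool of 6 animals without saying whether that is per genotype. The labels spell out neither the letters PreASKO, nor the driver of the deletion and of GFP, nor whether floxed animals carried a recombinase. With 1 pooled library per genotype, no difference below has a replicate check, none was tested, and the intervals in parentheses are exact 95% intervals for counting error only. In a mixed sample such as this, fewer cells of a type and less RNA per cell cannot be told apart.

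TGF-beta is made as a precursor whose propeptide stays wrapped around the mature dimer and keeps it from its receptors. Most cells secrete this latent complex joined to a latent TGF-beta binding protein (LTBP), which tethers it to fibrillin microfibrils and fibronectin until integrins, proteases or thrombospondin release the ligand. The free ligand binds the type II receptor (Tgfbr2), which phosphorylates the type I receptor (Tgfbr1), and Smad2 and Smad3 carry the signal to the nucleus. Betaglycan (Tgfbr3) presents ligand, TGF-beta 2 above all, to the signalling pair. In fat, TGF-beta is known as an inhibitor of preadipocyte differentiation and as a driver of matrix production by fibroblasts.

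The libraries held 37705236 (floxed) and 29172653 (PreASKO) counts, and levels are given as CPM, the count divided by the total of its library and multiplied by a constant. Sox9, the targeted gene, stood at 6.05 CPM in the floxed and 2.50 CPM in the PreASKO library, a ratio of 0.414 (0.313 to 0.541). Beside the label of precursor cells stand 14 adipose precursor and fibroblast markers, Pdgfra, Cd34 and Dlk1 among them. All 14 were detected in both libraries, with a summed level of 14803 CPM in floxed and 8885 CPM in PreASKO cells. Dlk1 stood at 28.2 CPM in floxed and 24.0 CPM in PreASKO cells. Detection is no check of the label, since nearly all markers of other cell types were detected too. All 14 macrophage markers were detected too, at 11784 CPM in floxed and 17782 CPM in PreASKO cells, so both libraries held RNA of macrophages beside that of stroma. Scaling to the stromal markers in place of the totals raised every log2 ratio by 0.74, and scaling to the macrophage markers lowered it by 0.59. Directions below are for library totals. Where the ratio of a named gene or the median of a pathway list changes direction under either scaling, this is said where the value is first given.

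The 250 bases upstream of annotated starts are shown for 4 members: the ligand genes that were higher in PreASKO, Tgfb1 and Tgfb2, and the binding protein genes whose windows held a match to a SOX-type or a MEIS-type motif, since the series is about Sox9 and Meis1. They are RefSeq sequences of GRCm38.p6, 5′ to 3′ on the strand of the gene and ending at the base before the start, and capitals mark motif matches on either strand. The Tgfb1 window is chr7:25686752-25687001 on the plus strand. The Tgfb2 window is chr1:186705990-186706239 on the minus strand, the Ltbp1 window chr17:75178531-75178780 on the plus strand and the Ltbp4 window chr7:27337613-27337862 on the minus strand. These 3 lie upstream of starts inside the annotated span of their genes, so they are not the outermost 5′ ends.
Tgfb1: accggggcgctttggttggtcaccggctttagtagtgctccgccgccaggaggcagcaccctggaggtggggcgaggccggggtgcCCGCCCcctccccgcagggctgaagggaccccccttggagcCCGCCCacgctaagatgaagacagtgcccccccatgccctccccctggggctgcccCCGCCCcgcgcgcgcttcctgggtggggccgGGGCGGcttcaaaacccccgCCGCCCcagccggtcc
Tgfb2: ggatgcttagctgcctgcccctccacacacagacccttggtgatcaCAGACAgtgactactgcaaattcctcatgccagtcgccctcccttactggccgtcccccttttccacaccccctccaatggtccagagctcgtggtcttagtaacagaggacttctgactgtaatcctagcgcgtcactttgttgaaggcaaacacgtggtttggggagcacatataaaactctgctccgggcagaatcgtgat
Ltbp1: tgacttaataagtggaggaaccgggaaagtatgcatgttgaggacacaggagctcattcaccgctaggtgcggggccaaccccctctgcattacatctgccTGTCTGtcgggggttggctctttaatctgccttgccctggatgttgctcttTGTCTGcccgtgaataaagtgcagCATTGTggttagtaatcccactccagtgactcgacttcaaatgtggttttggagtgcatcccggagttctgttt
Ltbp4: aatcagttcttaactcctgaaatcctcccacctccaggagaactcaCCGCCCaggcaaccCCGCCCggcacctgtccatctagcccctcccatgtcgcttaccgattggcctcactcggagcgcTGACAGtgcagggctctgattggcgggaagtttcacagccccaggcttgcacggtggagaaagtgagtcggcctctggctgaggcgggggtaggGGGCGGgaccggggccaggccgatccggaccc
The motifs searched were ACAATG (SOX-type), TGACAG (MEIS-type), TGANTCA (AP-1), CAGACA (SMAD-type) and GGGCGG (GC box), and no match of one motif overlapped a match of another in these 4 windows. In the Tgfb1 window, 75.2% of bases were G or C and all 5 matches were GC boxes. The Tgfb2 window, at 53.6%, held a single SMAD-type match. The Ltbp1 window shown held 1 SOX-type and 2 SMAD-type matches, and the Ltbp4 window shown 1 MEIS-type match and 3 GC boxes. These windows were picked for their SOX-type or MEIS-type match. The other Ltbp1 window, chr17:75005279-75005528, held no match to any motif, and the other Ltbp4 windows held GC boxes but no MEIS-type match.

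Promoter windows could be matched for 8 of the 10 members, 12 windows in all, of which 2 belonging to Ltbp4 share 235 bases. The GC box occurred in 6 of these 12 windows, against 32.7% of the 32851 windows of all genes, and the SMAD-type motif in 3, against 17.1%. The SOX-type motif occurred in 1 window, against 10.7% of all windows, and the MEIS-type motif in 1, against 15.9%. No member window held the AP-1 motif, which 6.75% of all windows hold. A match is a run of letters and not a shown binding site, and windows of this length say nothing about enhancers.

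All 10 members reached 100 counts in at least 1 library, the limit set for the comparison of ratios, as did 12982 genes in all. By library totals, 7 of the 10 members were lower in PreASKO (51.5% of all genes) and 3 were higher (48.5%). Scaled to the stromal markers, 1 of 10 members was lower, against 12.9% of all genes, and scaled to the macrophage markers 9 of 10 were lower, against 89.6% of all genes. The median log2 ratio of PreASKO over floxed was -0.20 for the members and -0.019 for all genes; scaled to the stromal markers it was 0.53 for the members and 0.72 for all genes, and scaled to the macrophage markers -0.80 and -0.61. Tgfb3, on the lower side, was the single member past 2-fold in either direction, as were 11.4% of all genes, 1039 of them lower and 442 higher; scaled to the stromal markers it was within 2-fold, and Tgfb1 and Tgfb2 were past it on the higher side. Counting intervals included equal levels for Tgfbr1 and Ltbp4 and excluded them for the other members. The share of all genes with intervals that exclude equal levels was not computed, so no count of members is read from this.

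**Figure D1:**
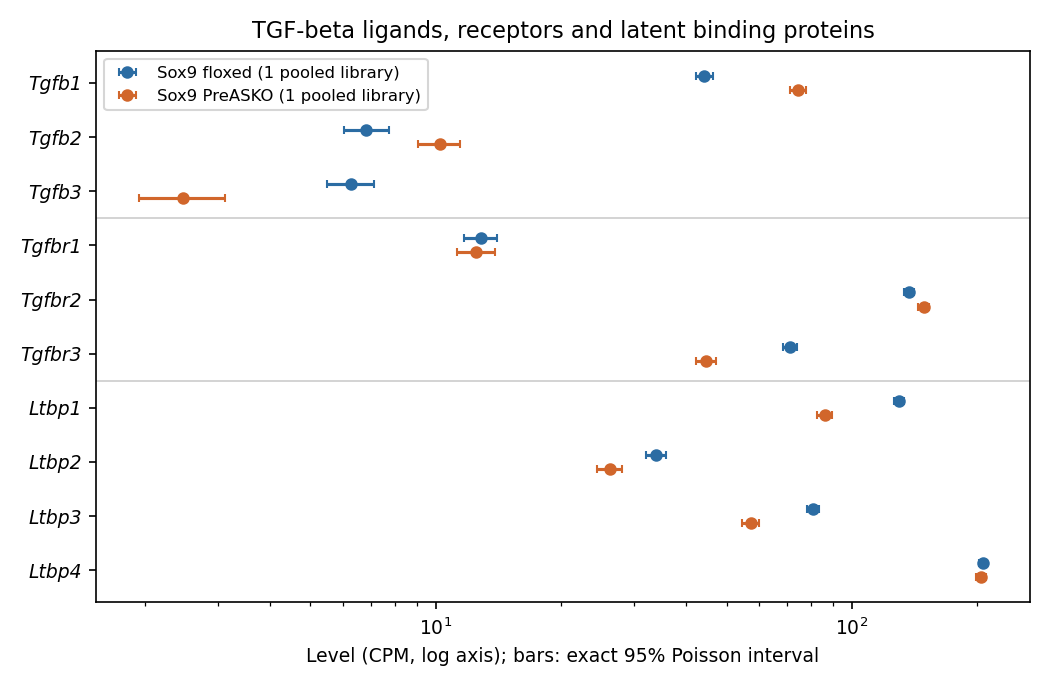
Level of each member in CPM (log axis) in the Sox9 floxed and the Sox9 PreASKO library, 1 pooled library each; bars are exact 95% Poisson intervals and grey lines part ligands, receptors and binding proteins. Tgfb1 goes from 44.2 to 74.2 CPM and Tgfb3 from 6.26 to 2.47 CPM, whereas the Ltbp4 points, 207 and 205 CPM, lie on top of each other.

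The ligand genes diverged. Tgfb1, the main isoform of immune and stromal cells (gene ID 21803, chromosome 7, 25687002 to 25705077 in GRCm38.p6, the assembly of all positions here), stood at 44.2 CPM in the floxed library (42.1 to 46.4) and 74.2 CPM in the PreASKO library (71.2 to 77.4), from 1668 and 2166 counts. The ratio was 1.68 (1.57 to 1.79), and 93.4% of all genes had a lower ratio. It stayed above equal levels when scaled to the macrophage markers, at 1.11, and reached 2.80 when scaled to the stromal markers.

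Tgfb2, an isoform that depends on betaglycan for tight receptor binding (gene ID 21808, chromosome 1, 186622787 to 186709697), stood at 6.82 CPM in floxed cells (6.01 to 7.70) and 10.2 CPM in PreASKO cells (9.09 to 11.4), from 257 and 298 counts. Its ratio was 1.50 (1.26 to 1.78), which turned to 0.993 when scaled to the macrophage markers. The propeptides of TGF-beta 1 and TGF-beta 3, unlike that of TGF-beta 2, are known to carry the RGD motif that integrins bind to release the ligand.

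Tgfb3, known for its role in palate closure and in mesenchyme (gene ID 21809, chromosome 12, 86056743 to 86079041), went the other way. It stood at 6.26 CPM in floxed cells (5.49 to 7.11) and 2.47 CPM in PreASKO cells (1.93 to 3.11), from 236 and 72 counts. Its ratio was 0.394 (0.299 to 0.515), 4.55% of all genes had a lower ratio, and the upper end of the interval lay just inside the 2-fold limit. Tgfb3 was the single member that stayed lower under both marker scalings, at 0.657 against the stromal and 0.261 against the macrophage markers. In the annotation 2 predicted genes on the other strand overlap 4.82% and 7.60% of its exon bases, and the labels do not say whether counting used strand.

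Ratios between ligands inside a library do not depend on library scaling. All Tgfb2 counts came from the deposited repeat-distributed column, and all Tgfb1 and Tgfb3 counts from the raw column. What the repeat-distributed column holds is not documented, so ratios and shares that involve Tgfb2 compare unlike counts. Divided by exon length, Tgfb1 stood 11.0 times above Tgfb3 in the floxed library (9.59 to 12.7) and 46.8 times above it in the PreASKO library (37.0 to 60.0). Tgfb1 stood 15.5 times above Tgfb2 in floxed (13.6 to 17.8) and 17.4 times above it in PreASKO cells (15.4 to 19.7), intervals that overlap. The order of the minor isoforms turned over, with Tgfb2 at 0.708 of Tgfb3 in floxed (0.591 to 0.849) and 2.69 times Tgfb3 in PreASKO cells (2.08 to 3.53). Of the summed ligand level per kb, Tgfb3 made up 7.87% in floxed and 1.98% in PreASKO cells, and Tgfb1 86.5% and 92.7%.

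By library totals, the ratios of both signalling receptor genes lay closer to 1 than that of betaglycan. Tgfbr1, the type I receptor that phosphorylates Smads (gene ID 21812, chromosome 4, 47353222 to 47414926), stood at 12.8 CPM in floxed cells (11.7 to 14.0) and 12.5 CPM in PreASKO cells (11.3 to 13.9), from 484 and 365 counts. Its ratio was 0.975 (0.849 to 1.12), so counting error alone leaves room for a difference of either sign, and it turned to 1.62 when scaled to the stromal markers. Tgfbr2, the ligand-binding type II receptor (gene ID 21813, chromosome 9, 116087695 to 116175363), stood at 138 CPM in floxed cells (134 to 141) and 149 CPM in PreASKO cells (144 to 153). The ratio of 1.08 (1.04 to 1.13) turned to 0.716 when scaled to the macrophage markers. Its 2 count columns did not give the same size, with 1.42 from raw counts alone and 1.03 from repeat-distributed counts alone. With each scaled to the total of its own column, both lay outside the counting interval.

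Tgfbr3, which encodes betaglycan (gene ID 21814, chromosome 5, 107106567 to 107289629), stood at 70.9 CPM in floxed cells (68.3 to 73.7) and 44.7 CPM in PreASKO cells (42.3 to 47.2), from 2674 and 1303 counts. The ratio was 0.630 (0.589 to 0.673) and turned to 1.05 when scaled to the stromal markers, whose summed ratio was 0.600. Inside the libraries, Tgfbr2 per kb stood 1.44 times above Tgfbr3 in floxed (1.38 to 1.51) and 2.48 times above it in PreASKO cells (2.33 to 2.64). All Tgfbr3 counts were raw, whereas over 90% of Tgfbr2 counts were repeat-distributed. This ratio and the receptor shares thus compare unlike counts. Tgfbr2 to Tgfbr1 was 8.40 in floxed (7.65 to 9.24) and 9.31 in PreASKO cells (8.37 to 10.4), so the balance of the signalling pair differed by less than its counting intervals. Betaglycan made up 38.3% of the summed receptor level per kb in floxed cells and 26.7% in PreASKO cells.

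**Figure D2:**
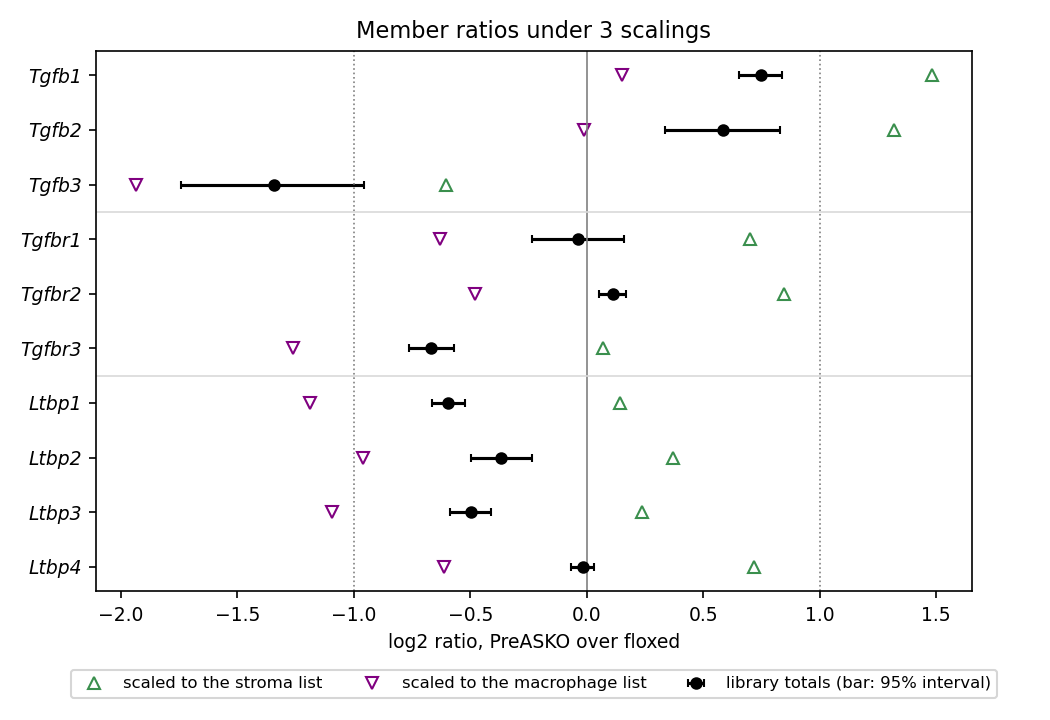
Log2 ratio of PreASKO over floxed for each member, scaled to library totals (black, bars are exact 95% intervals), to the summed stromal markers (green) and to the summed macrophage markers (purple); dotted lines mark 2-fold. Tgfb1 lies right of 0 and Tgfb3 left of 0 under all 3 scalings, while Tgfbr3 and the binding protein genes turn from left to right of 0 against the stromal markers.

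The LTBP genes were the most abundant group. By library totals all 4 had ratios under 1, as did 51.5% of all genes. All 4 turned above 1 when scaled to the stromal markers, a scaling under which only 12.9% of all genes were lower. Ltbp1, which binds each TGF-beta isoform (gene ID 268977, chromosome 17, 75005480 to 75392512), stood at 129.8 CPM in floxed cells (126 to 134) and 86.0 CPM in PreASKO cells (82.7 to 89.4), from 4896 and 2509 counts. Its ratio was 0.662 (0.631 to 0.695), and 1.10 when scaled to the stromal markers. Ltbp3, which also binds the isoforms and is known from bone and tooth growth (gene ID 16998, chromosome 19, 5740900 to 5758536), stood at 80.7 CPM in floxed cells (77.8 to 83.6) and 57.1 CPM in PreASKO cells (54.4 to 59.9). The ratio of 0.708 (0.666 to 0.752) turned to 1.18 when scaled to the stromal markers.

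Ltbp2, a fibrillin-binding member that does not bind latent TGF-beta (gene ID 16997, chromosome 12, 84783212 to 84876558), stood at 33.8 CPM in floxed cells (31.9 to 35.7) and 26.2 CPM in PreASKO cells (24.4 to 28.1). Its ratio of 0.776 (0.708 to 0.849) turned to 1.29 when scaled to the stromal markers. A gene on the other strand overlaps 11.3% of its exon bases. Ltbp4, which helps assemble elastic fibres and binds TGF-beta 1 weakly (gene ID 108075, chromosome 7, 27305140 to 27339720), was the most abundant member at 207 CPM in floxed cells (203 to 212) and 205 CPM in PreASKO cells (199 to 210). The ratio was 0.988 (0.955 to 1.02), and it was 1.65 when scaled to the stromal and 0.655 when scaled to the macrophage markers. Set against the other LTBP genes inside each library, Ltbp4 stood at 1.88 times Ltbp1 per kb in floxed (1.81 to 1.95) and 2.80 times in PreASKO cells (2.67 to 2.94). Against Ltbp2 it went from 7.08 to 9.02 times and against Ltbp3 from 2.27 to 3.17 times, in each case with intervals that did not overlap. Its share of the summed LTBP level per kb was 47.3% in floxed and 56.1% in PreASKO cells.

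**Figure D3:**
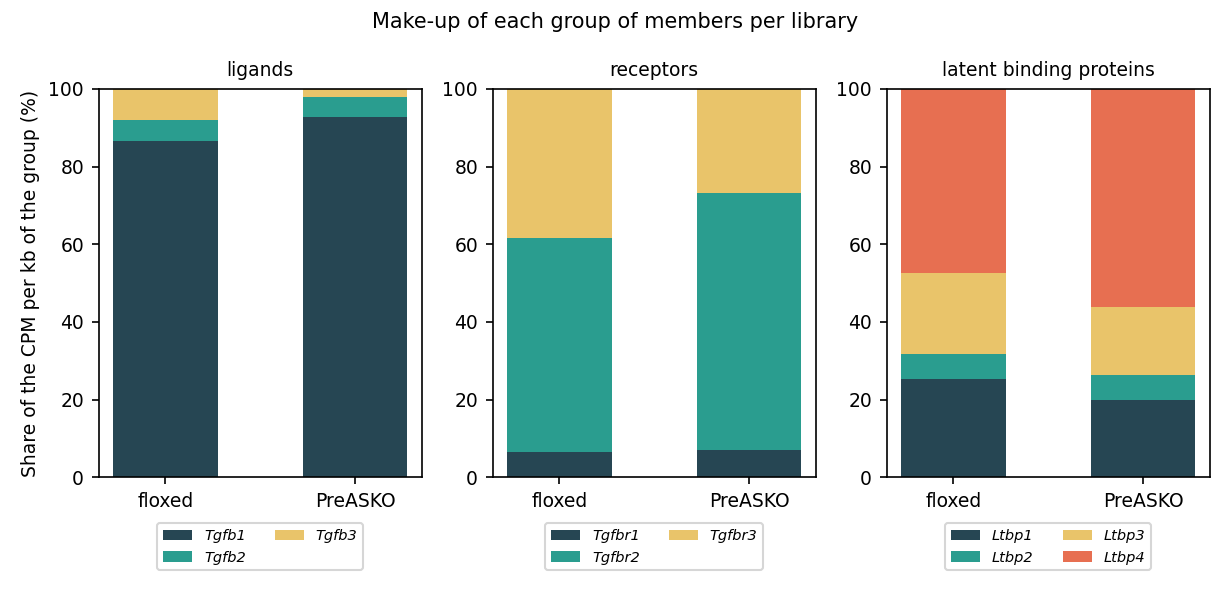
Share of each member in the summed level (CPM per kb of exon) of its group, in percent, for 1 floxed and 1 PreASKO library. These shares do not depend on library scaling. Counts of Tgfb1, Tgfb3 and Tgfbr3 were raw, and those of the other members mainly repeat-distributed. The Tgfb3 band narrows from 7.87% to 1.98%, the Tgfbr3 band from 38.3% to 26.7%, and the Ltbp4 band widens from 47.3% to 56.1%.

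Ordered by level per kb of exon, the floxed library ran from Ltbp4 at 35.3 CPM per kb through Tgfb1 (20.3), Ltbp1 (18.8), Tgfbr2 (16.8), Ltbp3 (15.5), Tgfbr3 (11.7), Ltbp2 (4.99), Tgfbr1 (2.00) and Tgfb3 (1.85) to Tgfb2 (1.31). Among these neighbours the counting intervals of Tgfbr1 and Tgfb3 overlapped and those of the other pairs did not. In the PreASKO library Tgfb1, at 34.1 CPM per kb, was next to Ltbp4, at 34.9, with overlapping intervals. Below them came Tgfbr2 (18.2), Ltbp1 (12.5), Ltbp3 (11.0), Tgfbr3 (7.34) and Ltbp2 (3.87). Tgfb2 (1.96) and Tgfbr1 (1.95) overlapped, and Tgfb3 (0.730) was last. Both orders mix members with raw counts (Tgfb1, Tgfb3 and Tgfbr3) and members with mainly repeat-distributed counts.

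The machinery that stores and frees the ligand was described with lists of pathway genes, counted among those past the same limit. Of all genes, 51.5% were lower by library totals and 12.9% when scaled to the stromal markers. The median log2 ratio of all genes was -0.019 by library totals and 0.72 when scaled to the stromal markers. Of 12 fibrillins, fibulins and other microfibril genes, to which LTBPs attach, 12 were lower by library totals, with a median log2 ratio of -0.63. Scaled to the stromal markers, the median turned to 0.11 and 7 of the 12 were higher. Efemp1, a fibulin, and Mfap4, a microfibril glycoprotein, had ratios of 0.416 (0.397 to 0.437) and 0.481 (0.455 to 0.508), which stayed under 1 against the stromal markers, at 0.694 and 0.801. The fibrillin gene Fbn2 and Mfap5 had ratios of 0.566 and 0.544. For secreted proteins that bind TGF-beta 7 of 7 genes were lower, the median was -0.95, and 3 of them turned higher against the stromal markers. The small proteoglycan genes Fmod, Aspn, Lum and Dcn had ratios of 0.243, 0.351, 0.512 and 0.519. Mfap5, Lum and Dcn are also among the stromal markers.

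Of 14 genes that tether, release or process latent TGF-beta, 10 were lower by library totals (51.5% of all genes), with a median log2 ratio of -0.53. The 4 higher ones were Itgb1 (1.20), Nrros (1.32), Thbs1 (1.34) and Mmp9 (1.53), and all but Mmp9 turned below 1 against the macrophage markers. The 15 measured genes of this list summed to 2153 CPM in floxed and 2089 CPM in PreASKO cells. Scaled to the stromal markers, 3 of 14 were lower (12.9% of all genes) and the median turned to 0.21. Plat, which encodes tissue plasminogen activator, had a ratio of 0.447 (0.415 to 0.481) and the integrin gene Itgb3 one of 0.486 (0.393 to 0.597), both also under 1 against the stromal markers. Bmp1, a protease that cleaves LTBP1, had a ratio of 0.589 and Mmp2, a gelatinase that can activate the ligand, one of 0.620, which turned to 1.03 against the stromal markers. Among the other receptors and receptor regulators, 6 of 10 were lower by library totals, against 51.5% of all genes. Scaled to the stromal markers, 1 of 10 was lower, against 12.9% of all genes, and the median of -0.039 turned to 0.70. Vasn, whose product traps TGF-beta, had the lowest ratio there, 0.363 (0.328 to 0.401). Cd109 and the decoy receptor gene Bambi had ratios of 0.624 and 0.782, which turned above 1 against the stromal markers. Itgb1bp1, an adaptor of the integrin beta 1 tail, had a ratio of 1.33, which turned to 0.882 against the macrophage markers.

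Intracellular genes went both ways, with 9 of 14 lower by library totals (51.5% of all genes) and a median of -0.13. When scaled to the stromal markers 2 of 14 were lower (12.9% of all genes), with a median of 0.61. When scaled to the macrophage markers 13 of 14 were lower (89.6% of all genes), with a median of -0.72. The inhibitory Smad gene Smad6 had a ratio of 0.352 (0.251 to 0.485) from 180 and 49 counts, and Pmepa1, a feedback inhibitor induced by TGF-beta, one of 0.523 (0.427 to 0.638). The phosphatase gene Ppm1a had a ratio of 0.670, which turned to 1.12 against the stromal markers. Smurf1, a ubiquitin ligase of Smads, had a ratio of 1.52 (1.39 to 1.66), and nearly equal levels in both libraries when scaled to the macrophage markers.

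Genes known to be induced by TGF-beta in fibroblasts did not move one way. Of 22, by library totals 14 were lower (51.5% of all genes) and 8 higher (48.5%). By over 2-fold, 4 were lower (8.0% of all genes) and 2 higher (3.4%). The median of -0.25 turned to 0.48 when scaled to the stromal markers, where the median of all genes was 0.72. Under that scaling 8 of the 22 were lower, against 12.9% of all genes. Col1a1, 1 of the 22, is also a stromal marker, and held 6290 of the 14803 CPM of those markers in floxed cells. On the lower side stood the matrix gene Postn, from 2081 to 880 CPM, a ratio of 0.423 (0.417 to 0.429), and Snai2, a repressor of epithelial genes, with a ratio of 0.399 (0.341 to 0.466). On the higher side stood Cdkn2b, a cell cycle inhibitor, from 53 to 161 counts, a ratio of 3.93 (2.86 to 5.46), and Snai1, from 51 to 106 counts, a ratio of 2.69 (1.91 to 3.83). These 4 kept their direction under both marker scalings.

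**Figure D4:**
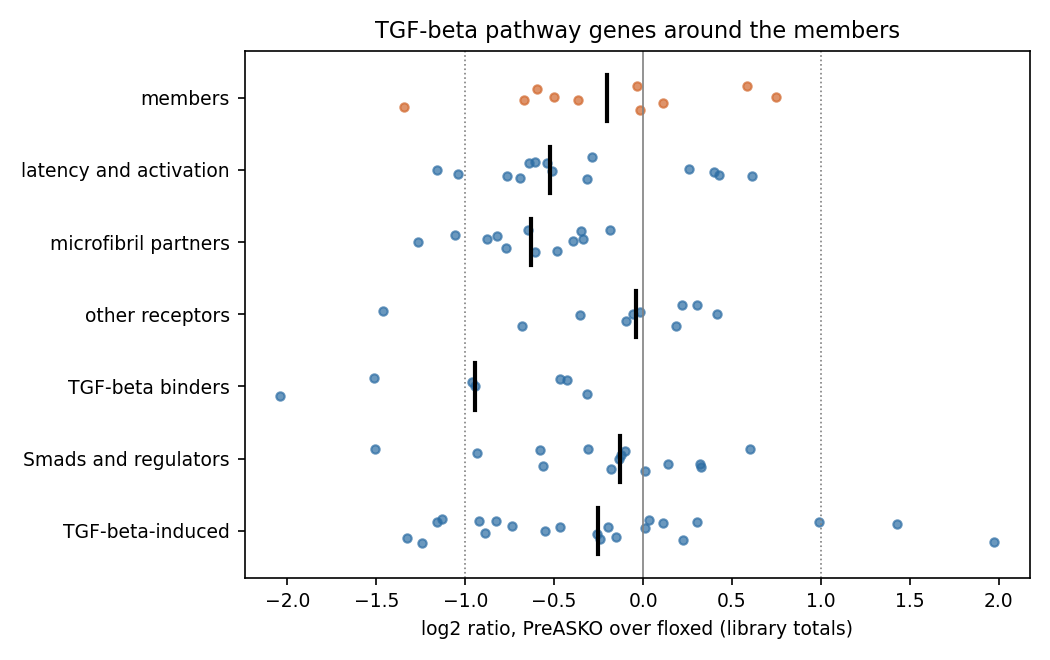
Log2 ratio of PreASKO over floxed, scaled to library totals, for the 10 members (orange) and for genes of 6 TGF-beta pathway lists (blue); each point is a gene that reached 100 counts in at least 1 library, black bars are medians and dotted lines mark 2-fold. All 12 microfibril partners and all 7 binders lie left of 0, although 7 and 3 of these turn right of 0 when scaled to the stromal markers, and the TGF-beta-induced genes span both sides.

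Markers of several cell types differed beside these ratios. By library totals, 51.5% of all genes were lower and 48.5% higher. All 14 macrophage markers were higher by library totals (8 turned lower against their own sum), with a summed ratio of 1.51, and next to it Tgfb1 had 1.68 and Tgfb2 1.50. Among them Lyz2, the macrophage lysozyme, had a ratio of 1.69 and Cd163, a receptor for haemoglobin complexes, 1.96. All 14 stromal markers were lower by library totals (7 turned higher against their own sum), with a summed ratio of 0.600, Col1a1 at 0.682 (1.14 against their own sum) and Dpp4, a marker of interstitial precursors, at 0.275; beside it stood Tgfbr3 at 0.630, Ltbp1 at 0.662 and Ltbp3 at 0.708. The 9 mural markers that passed the count limit were lower by library totals, with a summed level over all 9 of 513 CPM in floxed and 334 CPM in PreASKO cells, and 6 of them turned higher against the stromal markers. Their examples were Acta2 (0.600) and Des (0.485). The part of these markers in the ratios of the members was not tested.

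Mesothelial and epithelial markers summed to 184 CPM in floxed and 5.48 CPM in PreASKO cells, with Upk1b at 0 counts in PreASKO, Upk3b going from 1598 to 25 counts and Krt14 from 279 to 1. The 9 of these markers that passed the count limit did so in the floxed library alone, which favours a lower ratio. All 9 were lower by over 2-fold, as were 8.0% of all genes. Under both marker scalings these 9 were lower too, and their part in the low Tgfb3 was not tested. Under the count limit, Krt18 had a ratio of 0.0657 (59 and 3 counts), Epcam 0.912 (17 and 12 counts) and Krt5 3.88 (1 and 3 counts). The Epcam ratio turned to 1.52 against the stromal markers. Granulocyte markers summed to 66.9 CPM in floxed and 143 CPM in PreASKO cells, with Camp going from 20 to 602 counts and Csf3r at a ratio of 0.830, which turned above 1 when scaled to the stromal markers. Endothelial markers went both ways by library totals, with 6 of 11 higher (48.5% of all genes) and 5 lower (51.5%). Their median log2 ratio of 0.045 and summed ratio of 1.12 both turned to the lower side against the macrophage markers. Cdh5 had a ratio of 1.16, which turned to 0.767 against the macrophage markers, and Vwf one of 1.70. Of 10 lymphocyte markers past the count limit, 7 were higher and 3 lower by library totals, and their summed ratio of 1.12 also turned below 1 against the macrophage markers. Cd4 had a ratio of 1.09, which turned to 0.720 against the macrophage markers, and Cd3d one of 1.75, whereas the other CD3 chain genes Cd3e and Cd3g stood at 0.805 and 0.657, both turning above 1 against the stromal markers. Gzma had 0 counts in PreASKO. Of 7 adipocyte markers, 6 were lower by library totals, and the summed ratio of 0.854 turned above 1 against the stromal markers. Adipoq had a ratio of 0.537 and Fabp4 one of 0.870, which turned to 1.45 against the stromal markers. Apart from Upk1b and Gzma in PreASKO, no measured marker of the 8 lists was at 0 in either library.

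**Figure D5:**
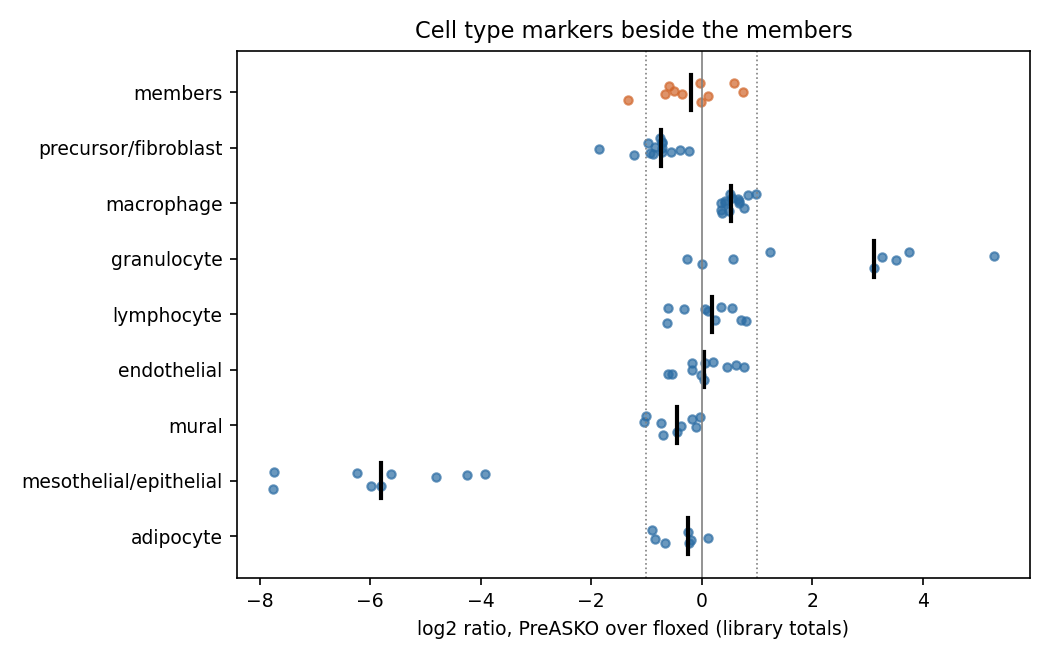
Log2 ratio of PreASKO over floxed, scaled to library totals, for the 10 members (orange) and for markers of 8 cell types (blue); each point is a gene that reached 100 counts in at least 1 library, black bars are medians and dotted lines mark 2-fold. Macrophage markers (median 0.53) and stromal markers (median -0.74) bracket the members (median -0.20). When scaled to their own sum, 7 of the 14 stromal markers lie right of 0. Mesothelial and epithelial markers lie far to the left, and those shown reached 100 counts in the floxed library alone.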

How the data were processed

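The authors deposited a table with raw counts and repeat-distributed counts per gene and library, a fold change and its log2, per the file headers. Per the submitters' processing notes the genome build was mm10. Aligner and counter were not given in the sources used here. Values in the repeat-distributed columns are estimated counts that the authors assigned per gene and library, per the file headers, of which 99.7% lie within 0.01 of a whole number; they made up 49.1% of floxed and 50.6% of PreASKO counts. What they hold is not documented. The authors' deposited fold ratio and its log2 are PreASKO over floxed, as their values show beside the counts. Columns were matched to samples by KO and WT in the sample titles.

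Both counts were summed per gene, rounded and divided by the library total (CPM). For 7 of the 10 members over 90% of counts were repeat-distributed, and for 3 all were raw. Those 3 have 1 annotated RefSeq transcript each, and the other 7 have 2 to 14. Whether transcript number decides the column of a count was not tested. The members' log2 ratios were within 0.013 of the authors' deposited log2 values. Ratios use no pseudocount. A gene at 0 in a library was given 3 counts for its ratio, which affects Upk1b and Gzma alone among the genes listed. No test between genotypes was possible with a single library each. Levels have exact Poisson and ratios exact conditional (Clopper-Pearson) 95% intervals, for counting error only. The calculation was run on simulated Poisson counts, which checks the code alone. The intervals treat repeat-distributed values as plain counts, and the simulation did not model how those values arise. Exon length is the union of GENCODE M21 basic exons, and gene positions are those of RefSeq for GRCm38.p6.

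The members and the 14 gene lists were chosen with earlier results of these data known, and list medians are descriptions beside those of all genes. Named were all members, Sox9 and the 4 genes of each pathway list with the largest absolute log2 ratio. In each cell type list the most counted gene in floxed cells and the one with the largest absolute log2 ratio were named. These list genes were picked among those with 100 or more counts in either library. Pdgfra, Cd34, Dlk1, Cd3e, Cd3g, Upk1b and Gzma were named after their values were seen. So were Itgb1, Nrros, Thbs1, Mmp9, Krt18, Epcam and Krt5. Alternatives were TMM scaling (edgeR 4.0.16, R 4.3.3), median-of-ratios scaling, stromal marker scaling, each count column alone, the deposited log2, pseudocounts and count filters; macrophage marker scaling was added after the data were seen. Calculations used scipy 1.17.1 and numpy 2.4.6 under Python 3.11.15, and figures matplotlib 3.10.9.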

Additional observations from a re-analysis of the deposited data

How the results depend on the processing

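With 1 pooled library per genotype, no library could be left out and depth limits Tgfb3, Tgfb2 and Tgfbr1 most. No paired analysis was possible because the labels give no replicate numbers and each group has 1 library. Under TMM, median-of-ratios, either count column alone, the deposited log2 and pseudocounts of 0.1, 1 and 5, no member whose interval excluded equal levels changed sign. The log2 ratio of Ltbp4, whose interval included equal levels, turned to 0.0087 under TMM and 0.019 under median-of-ratios scaling. With either of these, 6 members were lower, against 49.3% of all genes for TMM and 48.4% for median-of-ratios. Scaled to the stromal markers, log2 ratios turned to 0.069 for Tgfbr3, 0.14 for Ltbp1, 0.37 for Ltbp2 and 0.24 for Ltbp3, and also to 0.70 for Tgfbr1 and 0.72 for Ltbp4, whose intervals had included equal levels. Then 1 member was lower and 2 were past 2-fold, and medians were 0.53 for the members, 0.21 for activation, 0.11 for microfibril, 0.70 for receptor, -0.21 for binder, 0.61 for Smad and 0.48 for induced genes. Scaled to the macrophage markers, they turned to -0.0098 for Tgfb2 and -0.48 for Tgfbr2, 4 members were past 2-fold, and the medians, in the same order, were -0.80, -1.12, -1.22, -0.63, -1.54, -0.72 and -0.85. Both shifts follow from the scaling itself, by 0.74 and -0.59 for every gene.

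Raw counts alone, with values for 7 members, put 3 past 2-fold, among them Ltbp3 from 10 and 1 counts and Ltbp4 from 4 and 1, and gave medians of -0.62 for the members, -0.79 for microfibril, -0.64 for receptor, -0.42 for binder, 0.79 for Smad and -0.13 for induced genes. Repeat-distributed counts alone, again with 7 members, put 0 past 2-fold, since Tgfb3 has none, and gave medians of -0.072 for the members, 0.18 for receptor, -0.73 for binder and -0.51 for induced genes. These columns cover fewer genes. The deposited log2 turned the receptor median to 0.0062. A pseudocount of 5 CPM, close to the level of Tgfb3, put 0 members past 2-fold. With 10 or more counts in place of 100, 18.2% of all genes were lower and 9.08% higher by over 2-fold, and with no filter 18.6% and 13.7%. With a pseudocount of 5 these shares were 1.27% and 0.647%, scaled to the stromal markers 2.57% and 27.6%, and scaled to the macrophage markers 24.4% and 1.16%.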
